A study of Mus musculus with 162 samples.

Results

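Interscapular brown adipose tissue (iBAT) was taken from mice that had been without food for 8 h or 12 h, from a time in the light period on. It was compared with the same tissue of mice that had food until death or had lost it 2 h before. The comparison uses 12 libraries, chosen by their titles alone as iBAT at 8 h or 12 h of fasting (6 libraries, the daytime fast arm) and iBAT at 0 h or 2 h (6 libraries, the fed arm). They are 12 of the 18 iBAT libraries and 12 of the 162 libraries of the series. The study took 9 organs from each of 18 male C57BL/6J mice aged 8 to 9 weeks, which were group-housed under 12 h of light and 12 h of darkness. There were 3 mice at each of 6 fasting times, and all were killed at the same clock time shortly after lights-off, so that the fasting time sets when the food was taken away. RNA was sequenced from stranded mRNA libraries and counted per gene. In the fed arm, the 3 mice at 0 h had food until they were killed and the 3 mice at 2 h lost it shortly before lights-off. In the daytime fast arm, food was removed early in the light period for the 3 mice at 12 h, and near the middle of it for the 3 mice at 8 h, which had food in the hours of light before. Each library comes from 1 mouse. Total counts per library ran from 6980405 in 2 h replicate 3 to 19580149 in 8 h replicate 3. Each arm has 2 libraries from lane 8, 3 from lane 5 and 1 from lane 4. The lane number is read from the library names of the count data, which do not name the sequencing run. Libraries of lane 8 had 15140655 to 19580149 counts and those of the other lanes 6980405 to 10623851. A level is a read count scaled to library size and corrected for library composition (CPM), and a fold change is on the log2 scale, daytime fast against fed unless other times are named.

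Brown adipocytes oxidise fatty acids and glucose in mitochondria that the uncoupling protein Ucp1 lets run without making ATP, and noradrenaline from sympathetic nerves drives this heat production. The same cells also make fatty acids and sterols from glucose carbon. The transcription factors of the SREBP family raise the genes of both syntheses when insulin is high or cell sterol is low, and mice take most of their food in the dark. Skeletal muscle lies against the interscapular fat pad and can be taken along when it is dissected.

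The label of the tissue was checked against markers of brown adipocytes. All 11 were detected in all 12 libraries and passed the filter on low counts, and their summed level ran from 5127 CPM in 8 h replicate 3 to 12480.0 CPM in 0 h replicate 1. Per kilobase of exon, Ucp1 was the most abundant of them, with a median of 2168 CPM per kb, followed by Cox8b, a cytochrome c oxidase subunit, at 1748, and Cidea, a protein of the lipid droplet surface, at 1674. Lhx8, a transcription factor of the brown lineage, was the lowest at 1.31 CPM per kb. Of 6 white fat markers, 3 passed the filter. Hoxc10 was at 0 in all 12 libraries and Hoxc9 and Wt1 at 0 in 11 each, while the leptin gene Lep reached 250.3 CPM in 8 h replicate 3. Summed levels of the other cell types had medians of 475 CPM for 4 endothelial markers, 144.3 for 3 red blood cell markers, 48.6 for 5 macrophage markers and 28.2 for 4 nerve and Schwann cell markers. The 3 skin markers had a median sum of 3.24 CPM, mostly from Krt10, and none of the 6 lymphocyte or 3 neutrophil markers passed the filter.

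Skeletal muscle transcripts were present in every library, at levels that differed more between mice than between arms. The summed level of 42 muscle genes was 256, 1106 and 8159 CPM in the 3 libraries at 0 h, and 474, 1308 and 8787 CPM at 2 h. At 8 h it was 2324, 8813 and 9386 CPM, and at 12 h 140.9, 139.2 and 22614 CPM. Both the highest sum and the 2 lowest sums were therefore in mice fasted for 12 h, a 162-fold range, and the arms overlapped. Per kilobase the most abundant muscle gene was Acta1, skeletal muscle actin, which ran from 8.54 CPM in 12 h replicate 2 to 3294 CPM in 12 h replicate 3. The contractile gene Mylpf and the creatine kinase gene Ckm ran between the same libraries, from 2.97 to 813 CPM and from 5.30 to 1945 CPM. No gene of the list was at 0 in all libraries, though 6 were at 0 in at least 1, among them the slow myosin gene Myh7 in 2 and the developmental myosin gene Myh8 in 6. The glycogen phosphorylase gene Pygm did not pass the filter. Some of these genes kept a level where muscle was lowest, with 29.1 CPM for Myl1 and 11.7 CPM for Eno3 as their lowest values.

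**Figure D1:**
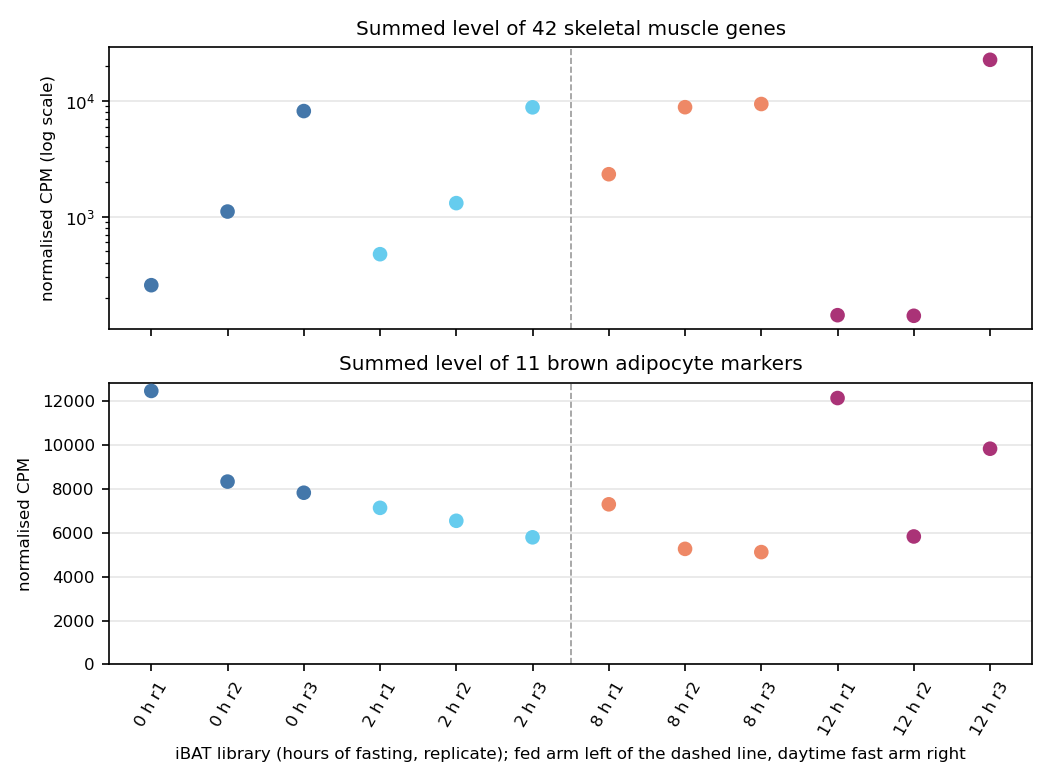
Summed level of the 42 skeletal muscle genes (upper panel, CPM on a log scale) and of the 11 brown adipocyte markers (lower panel, CPM) in each of the 12 libraries, with 1 point per mouse. The muscle sum is highest in 12 h replicate 3 (22614 CPM) and lowest in 12 h replicates 1 and 2 (140.9 and 139.2 CPM).

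Muscle genes gave no called difference between the arms. Of the 41 tested, 40 had a positive fold change, with a median of 1.14 against 0.00 for all 14268 genes tested. None passed in edgeR, DESeq2 or limma-voom, 0 reached an unadjusted p under 0.05 in edgeR, and the smallest adjusted p was 0.802. With the muscle level as a covariate, 1 of them passed, Myh8, which was lower after the fast by that fit (-4.09, adjusted p 0.0390) and had its highest level, 5.07 CPM, in 0 h replicate 3. That fit also called Myh3, another developmental myosin gene, which is not on the list, lower after the fast (-4.64, adjusted p 0.0390). The covariate is the mean log2 level of the tested muscle genes, Myh8 among them. The 2 values are therefore relative to the level of the list and do not by themselves show an effect of the fast. For the 41 muscle genes in the main fit, the median standard error of the fold changes was 1.31, against 0.21 over all genes. Their highest value was in 12 h replicate 3 for 37 of the 42 genes and their lowest in 12 h replicate 1 or 2 for 35. The median of the muscle sum was 1207 CPM in the fed arm and 5568 CPM in the daytime fast arm. In bulk tissue, fewer cells of a type cannot be told apart from less RNA per cell. Muscle was taken into account in a fit with the muscle level as a covariate and in a fit with factors computed without muscle genes. Beyond these fits, the part of muscle in the gene results was not tested.

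Some libraries stood apart from the rest. The first principal component of the 12 libraries held 36.7% of the variance and ran from -47.5 in 12 h replicate 1 to 76.9 in 12 h replicate 3, the libraries with the lowest and highest score also being among those with the least and most muscle RNA. The second held 20.9%, and here 12 h replicates 1 and 3 sat at 53.1 and 57.9 while 12 h replicate 2 sat at -13.99. The 9 libraries of the other times lay between -26.99 and 22.1 on it. Mitochondrially encoded genes took 12.9% of the counts in 12 h replicate 3 and up to 36.2% in 0 h replicate 2.

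The comparison of the arms asks which genes differ between 8 h or 12 h without food and a state with food within the last 2 h. In edgeR, 2 of 14268 genes tested passed at an adjusted p under 0.05, which is 0.0140% of them, and both differed by more than 1 on the log2 scale. At an unadjusted p under 0.05 there were 951 genes (6.67%), of which 462 were higher (3.24%) and 489 lower (3.43%) after the fast. DESeq2 called 31 genes (0.217%), 11 higher and 20 lower, and limma-voom with sample quality weights called 10 (0.0701%), 4 higher and 6 lower. Both genes called by edgeR were called by the other tools too. With either 8 h alone or 12 h alone against the fed arm, edgeR called 0 genes, with 1247 and 953 at an unadjusted p under 0.05.

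Sh2d4a, which encodes an adaptor protein with an SH2 domain (chr8:68276567-68347699 of GRCm38), rose. Its level was 9.82, 9.57 and 9.22 CPM at 0 h, 11.1, 6.31 and 7.70 at 2 h, 19.2, 21.4 and 18.4 at 8 h, and 16.5, 15.9 and 20.2 at 12 h. All 6 libraries of the daytime fast lay above all 6 fed libraries, and the levels at 0 h and 2 h overlapped. In edgeR the change was 1.05 with a standard error of 0.16 and an adjusted p of 0.0473. Isyna1, whose product makes inositol phosphate from glucose 6-phosphate (chr8:70594373-70597290), fell. It stood at 10.8, 23.3 and 15.9 CPM at 0 h, 9.58, 16.5 and 12.4 at 2 h, 4.31, 4.72 and 4.70 at 8 h, and 6.01, 6.56 and 6.23 at 12 h. All 6 fasted libraries lay below all 6 fed libraries, and the spread within the fasted times was narrow beside that at 0 h and 2 h. The change in Isyna1 was -1.45 with a standard error of 0.22 and an adjusted p of 0.0473. With the muscle level of each library as a covariate the changes were 1.04 for Sh2d4a and -1.44 for Isyna1, and both passed. With the replicate number as a block neither passed (adjusted p 0.0779 and 0.0633), nor with the lane as a block (adjusted p 0.190 for each), and the fold changes were 1.06 and 1.05 for Sh2d4a and -1.40 and -1.44 for Isyna1. Leaving out single libraries changed these calls. Without 0 h replicate 1 or 2, without 2 h replicate 2 or 3, or without any of the 6 fasted libraries, edgeR called 0 genes, with 629 to 1062 at an unadjusted p under 0.05. Without 2 h replicate 1 the same 2 genes were called, and without 0 h replicate 3 it called 1 gene that was neither of them. The fold change over all settings stayed between 0.96 and 1.16 for Sh2d4a and between -1.69 and -1.23 for Isyna1.

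Of the 20 genes with the smallest p, 10 in each direction, 2 passed in edgeR, 18 in DESeq2 and 8 in limma-voom, and 1 of the lower genes has a symbol that the count table stores as a date. For 13 of the 20 the arms did not overlap. Over all tested genes, 66 had arms that did not overlap, 39 of them higher after the fast (0.273%) and 27 lower (0.189%). Of the 10 higher genes, all but Slc25a29 and Lppos passed in DESeq2, and Sh2d4a alone in edgeR. Slc7a8, a transporter of large neutral amino acids, had 1.66, 2.28 and 2.53 CPM at 0 h, 2.27, 3.04 and 2.79 at 2 h, 3.85, 5.40 and 4.55 at 8 h, and 5.91, 11.3 and 6.43 at 12 h. Every fasted library was above every fed one, with the highest level in 12 h replicate 2 (log2 fold change 1.37, adjusted p 0.226). Slc25a29, which carries basic amino acids into mitochondria, ranged from 1.72 to 3.62 CPM (median 2.90) in the fed arm and from 3.95 to 9.50 (median 5.18) in the daytime fast arm (log2 fold change 1.07, adjusted p 0.444). Selenbp1, a methanethiol oxidase, ranged from 23.96 to 36.4 CPM (median 30.1) in the fed arm and from 40.2 to 59.03 (median 51.1) in the daytime fast arm, again without overlap (log2 fold change 0.72, adjusted p 0.271). Thra encodes a thyroid hormone receptor and had levels from 64.9 to 93.4 CPM (median 72.5) in the fed arm and from 96.7 to 108 (median 104.1) in the daytime fast arm (log2 fold change 0.48, adjusted p 0.444). The claudin gene Cldn5, which seals endothelial junctions, was high at 8 h, with 28.4, 36.6 and 25.8 CPM, and had 18.3, 14.6 and 28.2 CPM at 12 h against 10.7 to 15.4 CPM in the fed arm (log2 fold change 0.94, adjusted p 0.294). It goes against the rest of the endothelial list, where 10 of 12 tested genes had a negative sign, 2 of them at an unadjusted p under 0.05 (background 3.43% lower). The fold change was 0.68 for Agfg2, 0.79 for Rai2 and 0.66 for Glb1l2, 3 genes that limma-voom also called, with adjusted p of 0.382, 0.404 and 0.404 in edgeR. The noncoding gene Lppos had 0.71 and an adjusted p of 0.444.

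**Figure D2:**
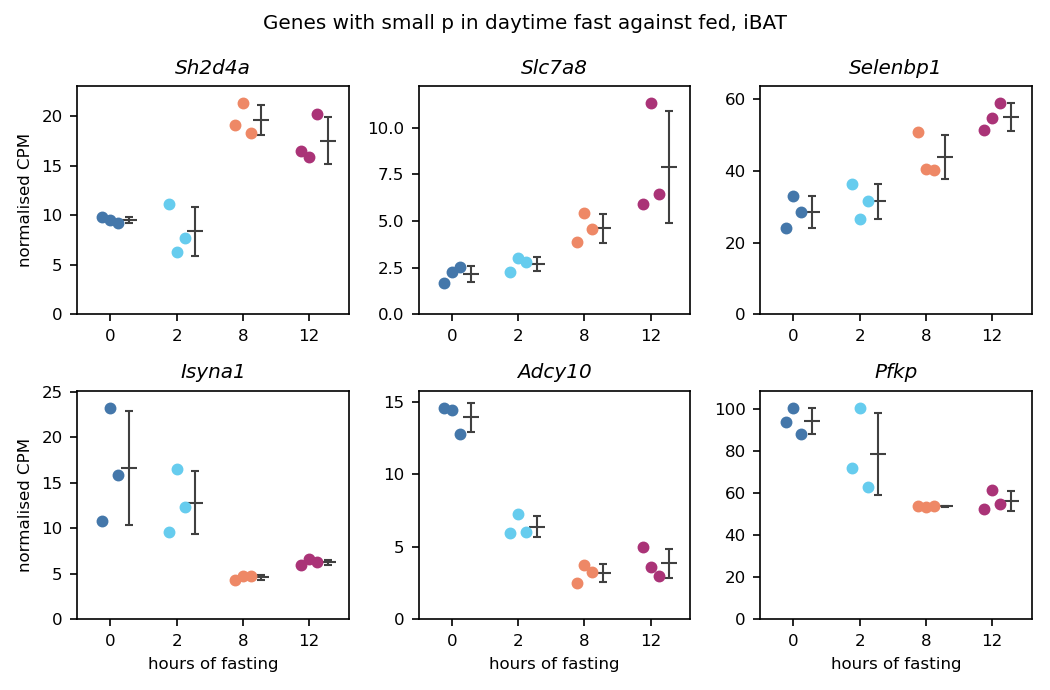
Level of 6 genes with a small p in the comparison of the arms, in CPM at each fasting time in hours, with 1 point per mouse and the mean and standard deviation of 3 mice beside them. Sh2d4a, Slc7a8 and Selenbp1 are higher and Isyna1, Adcy10 and Pfkp lower in all 6 fasted libraries than in all 6 fed libraries.

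All 10 lower genes passed in DESeq2, and Isyna1 alone in edgeR. Adcy10 encodes the adenylyl cyclase that responds to bicarbonate. Its level was 14.6, 14.4 and 12.8 CPM at 0 h, 5.92, 7.25 and 5.98 at 2 h, 2.49, 3.74 and 3.22 at 8 h, and 4.96, 3.59 and 2.96 at 12 h. The 2 h libraries lay between those at 0 h and those of the fast, with no overlap between the 3 sets (log2 fold change -1.54, adjusted p 0.124). The glycolytic enzyme gene Pfkp, a phosphofructokinase, had levels from 62.8 to 100.6 CPM (median 91.1) in the fed arm and from 52.3 to 61.6 (median 53.9) in the daytime fast arm (log2 fold change -0.65, adjusted p 0.294). Irak2, a kinase of interleukin receptor signalling, ranged from 18.3 to 31.7 CPM (median 23.9) in the fed arm and from 13.1 to 16.8 (median 14.7) in the daytime fast arm (log2 fold change -0.70, adjusted p 0.294). Neither of these genes overlapped between the arms. The interferon-inducible gene Gvin1 stood at 7.94, 11.2 and 1.32 CPM at 0 h, 7.06, 5.61 and 6.91 at 2 h, 0.793, 0.859 and 1.33 at 8 h, and 1.72, 1.80 and 0.409 at 12 h. Its fed libraries were the higher ones except 0 h replicate 3, which lay inside the range of the fast (log2 fold change -2.52, adjusted p 0.103), and limma-voom and the fit with a muscle covariate called it too. Arhgef37, a guanine nucleotide exchange factor gene, and Brsk2, a kinase related to AMPK, both had few counts and were called by DESeq2 and limma-voom. Arhgef37 had levels from 1.01 to 3.72 CPM (median 1.16) in the fed arm and from 0 to 0.453 (median 0.211) in the daytime fast arm (log2 fold change -2.82, adjusted p 0.226). For Brsk2 they ran from 0.664 to 1.76 CPM (median 1.10) in the fed arm and from 0.153 to 0.409 (median 0.293) in the daytime fast arm (log2 fold change -2.02, adjusted p 0.256). Cyp1a1, a target of the aryl hydrocarbon receptor, had a change of -1.40 with an adjusted p of 0.294. Elovl6, which lengthens palmitate to stearate, had levels from 642 to 1146 CPM (median 917) in the fed arm and from 482 to 677 (median 535) in the daytime fast arm, and 5 of its 6 fasted libraries lay below all fed libraries (log2 fold change -0.68, adjusted p 0.318).

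For fatty acid synthesis the list median differed with the fed time, at -0.72 against 0 h alone (-0.01 for all genes) and -0.14 against 2 h alone (0.03 for all genes). Between the pooled arms, of the 24 tested genes of that list none passed in edgeR, 10 were lower and 0 higher at an unadjusted p under 0.05 (background 3.43% lower), and DESeq2 called 2 lower. The median change was -0.49 against 0.00 for all genes, and 18 of the 24 had a negative sign. Acly, which splits citrate into acetyl-CoA for lipid synthesis, was at 2759, 2785 and 3961 CPM at 0 h, 1422, 1138 and 909.8 at 2 h, 706, 1182 and 1052 at 8 h, and 651, 1191 and 609 at 12 h. The 0 h libraries stood above all others, and those at 2 h were within or just above the range of the fast (log2 fold change -1.27, adjusted p 0.492). Fasn, the fatty acid synthase gene, had levels from 5429 to 12667 CPM (median 9354) in the fed arm and from 2657 to 9035 (median 7246) in the daytime fast arm and did not pass (log2 fold change -0.48, adjusted p 0.784). Its lowest level was in 12 h replicate 1 and its arms overlapped. The desaturase gene Scd1 had a change of -0.13 and the acetyl-CoA carboxylase gene Acaca of -0.56, with adjusted p of 0.920 and 0.662. Srebf1, which encodes the SREBP that drives this list, was at 392 ± 100.7 CPM at 0 h, 222 ± 48.03 at 2 h, 282 ± 53.2 at 8 h and 335 ± 140.7 at 12 h (mean ± SD, n = 3 at each time).

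The list of cholesterol synthesis and uptake had a median of -0.83 against 0 h alone, with 22 of 27 genes lower in sign and 7 called (background 0.269% lower). Against 2 h alone the median was 0.04, with 11 of 26 lower and 0 called. The difference between these contrasts was not tested on the list. Between the pooled arms none of 27 tested genes passed in edgeR, 11 were lower and 1 higher at an unadjusted p under 0.05 (background 3.43% lower and 3.24% higher), DESeq2 called 1 lower, and the median change was -0.41. Sqle, the squalene epoxidase gene, stood at 34.7, 24.96 and 28.5 CPM at 0 h, 8.95, 7.83 and 7.70 at 2 h, 4.65, 5.89 and 8.08 at 8 h, and 5.72, 7.91 and 6.84 at 12 h. The 0 h libraries were far above all others, and those at 2 h overlapped the highest of the fast (log2 fold change -1.53, adjusted p 0.444). Nsdhl, a sterol dehydrogenase of the same pathway, had means of 74.2 ± 10.3 CPM at 0 h, 39.8 ± 5.203 at 2 h, 30.6 ± 3.07 at 8 h and 36.1 ± 5.81 at 12 h (± SD, n = 3). As with Acly and Sqle, all its 0 h libraries lay above those of the later times (log2 fold change -0.78, adjusted p 0.492 for the arms). Of these genes, edgeR called Sqle alone between 0 h and 2 h, and none with the lane as a block.

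The difference between 0 h and 2 h was tested in a fit of the same 12 libraries with a mean for each time. The 0 h libraries come from lanes 8, 8 and 5 and the 2 h libraries from lanes 5, 5 and 4, so that lane is not balanced between these times. Depth differed as well, with 16227458, 15140655 and 9576245 counts at 0 h and 7714011, 8486506 and 6980405 at 2 h. In edgeR, 31 genes passed (0.217% of 14268), of which 8 rose (0.0561%) and 23 fell (0.161%) from 0 h to 2 h, all by more than 1 on the log2 scale, and 1040 (7.29%) had an unadjusted p under 0.05. DESeq2 called 150 (1.05%). With the lane as a block edgeR called 0, with 1317 at an unadjusted p under 0.05, so that none of the changes below passed in that fit, where Sqle had -1.63 (adjusted p 0.109). The count changed when single libraries were left out, which also leaves fewer mice at that time. EdgeR called 0 without 2 h replicate 2 or without 2 h replicate 3 (690 to 763 at an unadjusted p under 0.05). It called 13 without 0 h replicate 3, 15 without 2 h replicate 1, 20 without 0 h replicate 1 and 30 without 0 h replicate 2. Of the tested sterol genes, 8 fell and 0 rose (background 0.161% lower), with a median of -0.71 against -0.01 for all genes, and DESeq2 called 11. Sqle fell by 1.85 (standard error 0.24, adjusted p 0.00599). Cyp51, which removes a methyl group from lanosterol, fell by 1.32, with 58.3, 60.5 and 65.3 CPM at 0 h and 22.4, 24.4 and 26.7 CPM at 2 h. Its 2 sets of 3 libraries did not overlap. The sterol genes Hsd17b7, Sc5d, Mvd and Msmo1 fell by 1.36, 1.85, 2.56 and 1.23. The same held for Insig1, which holds SREBP in the endoplasmic reticulum and is itself an SREBP target, which fell by 1.54.

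Genes outside the sterol list also passed between 0 h and 2 h. Slc2a5, the fructose transporter gene, stood at 22.6, 18.8 and 26.5 CPM at 0 h, 6.43, 2.81 and 3.05 at 2 h, 2.72, 2.15 and 2.25 at 8 h, and 1.72, 3.15 and 3.17 at 12 h. It fell by 2.46 from 0 h to 2 h (adjusted p 0.00599), and all libraries after 0 h lay below all those at 0 h. Mid1ip1, which promotes the assembly of acetyl-CoA carboxylase, fell by 2.41. It was the only gene of the fatty acid synthesis list (24 tested) to pass in edgeR (background 0.161% lower). DESeq2 called 7 of that list lower (background 1.05% called in either direction). The list's median was -0.47. Rpia, an enzyme of the pentose phosphate pathway, fell by 1.31. Prkab1, a regulatory subunit of AMPK, fell by 1.58, E2f2, a cell cycle transcription factor, by 3.06, Ripor2 by 2.84, and the ciliary gene Ttc25 by 2.19. Their adjusted p values were all 0.00599. Among the genes that rose were Fkbp5, a target of the glucocorticoid receptor, by 2.25, with 10.1, 24.2 and 16.7 CPM at 0 h and 50.8, 72.4 and 119.4 CPM at 2 h, and the cytochrome P450 gene Cyp2b10 by 2.50. In the fasted libraries Fkbp5 had 26.7 to 68.5 CPM.

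With the 0 h mice alone as controls, edgeR called 41 genes for the daytime fast (0.291% of 14108 tested), of which 3 rose (0.0213%) and 38 fell (0.269%). A fit of all 12 libraries with a mean for each time called 21 higher and 83 lower for the same contrast. With the 2 h mice alone as controls it called 0, with 581 (4.19%) at an unadjusted p under 0.05. The contrasts with 0 h and of 2 h with 0 h share the 0 h libraries, so the values of each stand side by side. For fatty acid synthesis 3 genes fell against 0 h and 0 against 2 h. Against 0 h, Slc2a5 fell by 3.17, Sqle by 2.17, Acly by 1.82, Hsd17b7 by 1.56 and Cyp51 by 1.47. Acss2, which makes acetyl-CoA from acetate, fell by 1.28 and Pgd, a source of NADPH, by 1.13. The acyl-CoA synthetase gene Acsl5 fell by 1.35, and Acot11, an acyl-CoA thioesterase of brown fat, by 1.20. Angptl8, an inhibitor of lipoprotein lipase that insulin induces, fell by 2.06, though at 0 h it spread from 48.9 to 244 CPM. The genes that rose were Cntfr, a cytokine receptor, by 1.46, Fbxo31, a ubiquitin ligase subunit, by 1.35, and the phosphatase gene Mtmr14 by 1.29.

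No gene passed between the fast and 2 h, though some genes that fell from 0 h to 2 h had their lowest mean at 2 h. Insig1 had means of 451 ± 74.2 CPM at 0 h, 155.2 ± 20.1 at 2 h, 258 ± 53.8 at 8 h and 225 ± 24.97 at 12 h (± SD, n = 3). Mid1ip1 had 177 ± 42.004 CPM at 0 h, 33.2 ± 3.98 at 2 h, 69.4 ± 27.9 at 8 h and 72.3 ± 24.3 at 12 h. In the comparison of the fast with 2 h their changes were 0.65 and 1.10, with unadjusted p of 0.00409 and 0.00188 and an adjusted p of 0.914 for each in edgeR. The changes of Sqle and Cyp51 against 2 h were -0.31 and -0.13.

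**Figure D3:**
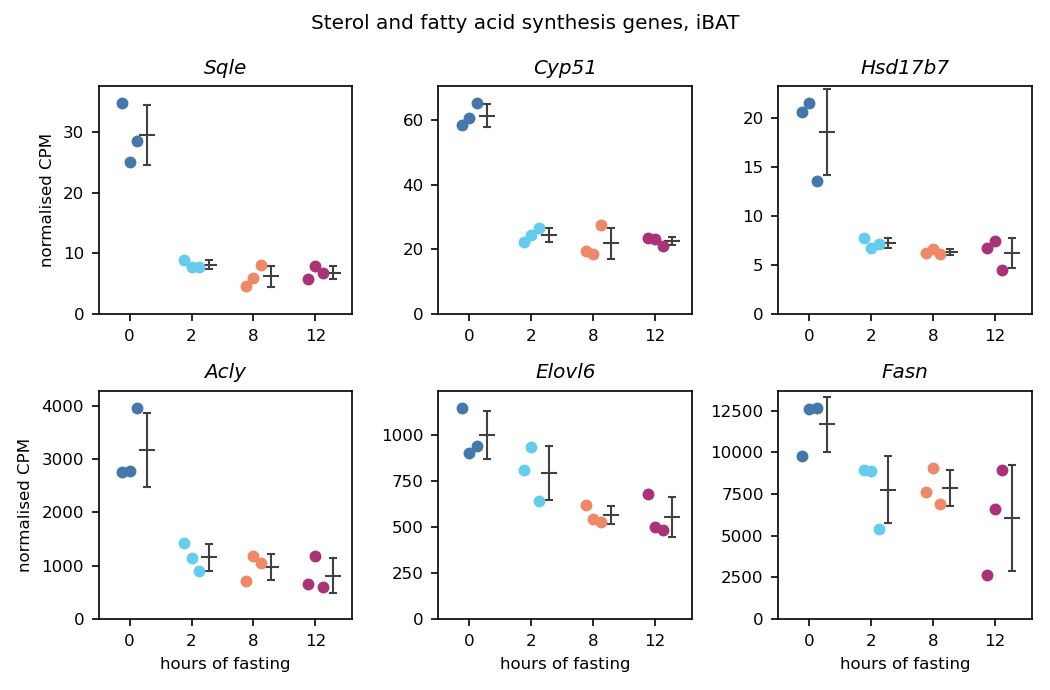
Level of 3 sterol synthesis genes (Sqle, Cyp51, Hsd17b7) and 3 fatty acid synthesis genes (Acly, Elovl6, Fasn) in CPM at each fasting time in hours, with 1 point per mouse and the mean and standard deviation of 3 mice beside them. The 0 h libraries of Sqle, Cyp51, Hsd17b7 and Acly lie above all libraries of the later times.

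The promoters of the sterol genes that fell between 0 h and 2 h are shown because these genes moved together. Of the 8 genes, 6 were matched by symbol to promoters of RefSeq on GRCm38.p6. In the 200 bases before the start, the letters CCAAT, read on either strand (ATTGG on the other), occurred in 5 of the 6, Insig1 being the exception, and in 29.3% of 32851 promoters. The sterol element TCACNCCAC, where N is any base, occurred in 0 of the 6 and in 0.858% of all promoters on either strand. Such a match describes letters only. The sequences are written 5′ to 3′ along the gene, with CCAAT or ATTGG in capitals, for the minus strand of Hsd17b7 (chr1:169969206-169969405), Msmo1 (chr8:64733579-64733778) and Cyp51 (chr5:4104698-4104897).
Hsd17b7: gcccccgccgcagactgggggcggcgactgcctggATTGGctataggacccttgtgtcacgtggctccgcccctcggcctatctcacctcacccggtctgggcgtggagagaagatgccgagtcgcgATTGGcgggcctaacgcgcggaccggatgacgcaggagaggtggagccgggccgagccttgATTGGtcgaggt
Msmo1: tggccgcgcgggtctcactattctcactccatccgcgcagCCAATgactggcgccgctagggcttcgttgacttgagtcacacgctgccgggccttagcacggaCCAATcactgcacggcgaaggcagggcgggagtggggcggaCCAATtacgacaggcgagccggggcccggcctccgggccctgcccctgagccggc
Cyp51: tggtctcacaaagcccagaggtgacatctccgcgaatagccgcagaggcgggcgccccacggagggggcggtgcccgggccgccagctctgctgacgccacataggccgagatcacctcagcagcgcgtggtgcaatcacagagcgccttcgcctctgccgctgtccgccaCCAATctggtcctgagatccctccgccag

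Genes of heat production gave no called difference between the arms in edgeR. Of the 20 tested genes of brown adipocyte identity, 4 were lower and 0 higher at an unadjusted p under 0.05 (background 3.43% lower and 3.24% higher), DESeq2 called 1 (Acot11) and limma-voom 0, and the median was 0.04. For the 22 tested genes of thermogenic activation these were 0 higher and 2 lower, with a median of 0.02 and 0 called by DESeq2 or limma-voom. Ucp1 was at 7993, 5149 and 3518 CPM at 0 h, 3577, 3208 and 2666 at 2 h, 3581, 2439.8 and 2333 at 8 h, and 7429.9, 2748 and 4409 at 12 h. Its highest levels were in 0 h replicate 1 and 12 h replicate 1, and the arms overlapped (log2 fold change -0.19, standard error 0.31, adjusted p 0.928). Elovl3, an elongase that cold induces in brown fat, had 232.3, 159.2 and 118.4 CPM at 0 h, 37.9, 75.5 and 68.3 at 2 h, 35.02, 20.003 and 17.4 at 8 h, and 76.5, 30.8 and 82.4 at 12 h. The 0 h libraries stood above all others (log2 fold change -1.40, standard error 0.51, adjusted p 0.647). Dio2, which activates thyroid hormone, had levels from 36.9 to 357 CPM (median 184) in the fed arm and from 27.4 to 117.9 (median 95.9) in the daytime fast arm (log2 fold change -1.20, adjusted p 0.734). For the coactivator gene Ppargc1a the change was -0.22 and for Adrb3, the adrenergic receptor of adipocytes, 0.42, with adjusted p of 0.874 and 0.818. Ucp3, a relative of Ucp1, ranged from 132.9 to 201 CPM (median 167.8) in the fed arm and from 44.5 to 138.3 (median 109.7) in the daytime fast arm (log2 fold change -0.79, adjusted p 0.533), with 5 of 6 fasted libraries below all fed ones.

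Glucose handling gave no called difference in edgeR. Of the 34 genes of glucose uptake, glycolysis and glycogen, 1 was higher and 5 were lower at an unadjusted p under 0.05 (background 3.24% and 3.43%), with a median of -0.09 and Pfkp alone called by DESeq2. Txnip, which restrains glucose uptake, had levels from 514 to 814 CPM (median 663) in the fed arm and from 729 to 1564 (median 1018) in the daytime fast arm (log2 fold change 0.70, adjusted p 0.492). Slc2a4, the insulin-sensitive glucose transporter gene, was at 592 ± 53.0 CPM at 0 h, 374 ± 11.3 at 2 h, 395 ± 84.7 at 8 h and 465 ± 32.9 at 12 h (± SD, n = 3), without a called difference (log2 fold change -0.17, adjusted p 0.893). For the 14 genes around pyruvate dehydrogenase, 1 was higher and 1 lower at that level, with a median of -0.11. Pdk4, the kinase that switches the enzyme off, was at 896, 1016 and 323 CPM at 0 h, 1983, 2059 and 2062 at 2 h, 2094, 1156 and 1064 at 8 h, and 714, 827 and 891 at 12 h. The 2 h libraries and 8 h replicate 1 were the high ones, and the 12 h libraries overlapped those at 0 h (log2 fold change -0.31, standard error 0.40, adjusted p 0.914). Mpc1, a subunit of the mitochondrial pyruvate carrier, had a change of -0.66 and the phosphatase gene Pdp1 of 0.60, with adjusted p of 0.583 and 0.533.

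Genes that take up, store and burn fatty acids had list medians near that of all genes. For lipoprotein lipase and fatty acid uptake (23 tested) 1 gene was higher and 3 lower at an unadjusted p under 0.05 (background 3.24% and 3.43%) and the median was 0.01. Angptl4, which inhibits lipoprotein lipase during fasting, stood at 71.3, 106 and 52.3 CPM at 0 h, 253, 226 and 218 at 2 h, 315, 222 and 208 at 8 h, and 169.7, 136.8 and 353 at 12 h. All libraries after 0 h lay above those at 0 h, so that the fed arm held both low and high levels (log2 fold change 0.60, adjusted p 0.818 for the arms, and log2 fold change 1.60, adjusted p 0.0924 for 2 h against 0 h). Lpl itself had a change of 0.14 with a standard error of 0.16. Acsl5 had levels from 236 to 568 CPM (median 332) in the fed arm and from 150.8 to 239.9 (median 187.9) in the daytime fast arm (log2 fold change -0.96, adjusted p 0.404) and passed in DESeq2. For fatty acid oxidation (38 tested) 3 genes were higher and 1 lower, with a median of 0.12. Acad12, an acyl-CoA dehydrogenase gene, had log2 fold change 0.48, adjusted p 0.533, and its arms did not overlap. The lists of lipolysis and lipid droplets (18 tested), triglyceride synthesis and glycerol (17) and ketone body metabolism (8) had 3 higher and 1 lower, 0 higher and 1 lower, and 0 higher and 1 lower at that level. Their medians were 0.13, 0.07 and 0.15. Plin2, which coats lipid droplets, had a change of -0.53, Cidec, which fuses them, of 0.36, and the ketone and lactate carrier gene Slc16a1 of -0.42, none of them passing in edgeR, DESeq2 or limma-voom.

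Lists for hormone and clock signals had medians near 0. In insulin signalling and FoxO (29 tested) 1 gene was higher and 0 lower at an unadjusted p under 0.05 (background 3.24% and 3.43%), with a median of -0.08. Irs2, an insulin receptor substrate, had levels from 4.86 to 26.8 CPM (median 20.5) in the fed arm and from 3.81 to 61.7 (median 27.4) in the daytime fast arm, a wide spread within the fast (log2 fold change 0.74, adjusted p 0.862). The glucocorticoid response (23 tested) had 0 genes at that level and a median of -0.12, and between 0 h and 2 h its median was 0.42. There 1 gene rose in edgeR (Fkbp5; background 0.0561%) and none did with the lane as a block, while DESeq2 called 2 higher and 1 lower. The circadian clock (18 tested) also had 0, and a median of -0.09. Among clock genes, Per1 had a change of -0.51, Nr1d1 of -0.50, Arntl of -0.21 and Dbp of 0.26, with standard errors of 0.44, 0.36, 0.40 and 0.36. No gene of these lists passed in edgeR, DESeq2 or limma-voom for the arms.

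The mitochondrial lists differed in sign. Of 53 nuclear genes of electron transport, 50 had a positive change, with a median of 0.15 and 1 higher at an unadjusted p under 0.05 (background 3.24%), the complex I gene Ndufv1 (log2 fold change 0.32, adjusted p 0.737). The sign depended on which fed time was used: against 0 h alone 29 were higher and 24 lower (median 0.00), against 2 h alone 51 were higher (median 0.33), and from 0 h to 2 h 45 were lower (median -0.23). Of 12 mitochondrially encoded genes, 11 had a negative change, with a median of -0.32 and 0 at that level. Their median was -0.58 against 0 h alone and -0.05 against 2 h alone. The mitochondrial gene mt-Nd1 was lowest in 12 h replicate 3, at 15412 CPM, and highest in 0 h replicate 1, at 46373 CPM (log2 fold change -0.47, adjusted p 0.755). None of these genes passed in edgeR, DESeq2 or limma-voom.

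The remaining lists had no gene called by edgeR between the arms, and DESeq2 called only Cldn5, of the endothelial list. Their median changes were 0.15 for heat shock and cold-inducible genes (18 tested), -0.03 for chaperones of the endoplasmic reticulum (19), 0.05 for the ATF4 stress response (23) and 0.03 for immediate early genes (22). They were 0.05 for autophagy and lysosome (35), 0.02 for adipokines and their receptors (19), 0.17 for the cell cycle (15) and -0.21 for splicing regulators (22, of which 3 were lower at an unadjusted p under 0.05). For tissue compartments they were -0.11 for collagen and matrix (22), -0.21 for endothelium (12), -0.26 for interferon-stimulated genes (21), 0.19 for macrophages (14) and 0.12 for red blood cells (7). Small numbers of tested genes gave -0.16 for nerve and Schwann cells (7), 0.18 for white adipocytes (5), 0.54 for skin and hair (3), 0.03 for T and B lymphocytes (2) and -0.37 for neutrophils (2). In the ATF4 list, 4 genes were higher and 2 lower at an unadjusted p under 0.05 (background 3.24% and 3.43%). Among them Cth, which makes cysteine, had levels from 1.82 to 5.31 CPM (median 2.96) in the fed arm and from 4.19 to 11.8 (median 6.25) in the daytime fast arm (log2 fold change 1.13, adjusted p 0.492). Mthfd1l, of mitochondrial folate metabolism, had levels from 0.912 to 2.79 CPM (median 2.08) in the fed arm and from 0.567 to 1.33 (median 0.670) in the daytime fast arm (log2 fold change -1.41, adjusted p 0.404) and was called by limma-voom alone.

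The times pooled within the fast were compared as well. Between 12 h and 8 h edgeR called 0 of 14268 genes, with 1354 (9.49%) at an unadjusted p under 0.05, and DESeq2 called 11 (0.0771%). Without 12 h replicate 2, whose second principal component lay apart from the other 12 h libraries, edgeR called 1268, 555 higher and 713 lower at 12 h. The 2 libraries left at 12 h are those with 140.9 and 22614 CPM of muscle transcripts. Without any other single library of the 2 times it called 0, with 456 to 1259 at an unadjusted p under 0.05. Nuclear electron transport genes had a median of 0.45 from 8 h to 12 h, with 6 of 53 higher and 1 lower at an unadjusted p under 0.05 (background 5.97% and 3.52%), against 0.02 for all genes. Their summed level was 41678, 34605 and 35359.7 CPM at 8 h and 49563, 32066 and 49499.6 CPM at 12 h, so that 12 h replicate 2 lay below all 8 h libraries. Endothelial genes had -0.51, and their marker sum was lowest in 12 h replicate 3, at 223 CPM.

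Longer fasts (18 h and 22 h, 5 libraries, without a 22 h library that the study left out) were set against the daytime fast in a fit of 17 libraries. In edgeR 0 of 14529 genes passed, though 2775 (19.1%) had an unadjusted p under 0.05, and DESeq2 called 34 (0.234%), 20 higher and 14 lower in the longer fast. Nuclear electron transport genes had a median of 0.62 against -0.05 for all genes, with 28 of 53 higher and 0 lower at an unadjusted p under 0.05 (background 11.1% and 8.05%). The 22 h libraries, from lanes 1 and 3, stood apart here. No library of the daytime fast shares these lanes or lane 2, which holds 18 h replicate 2, so lane and fasting time cannot be told apart for these 3 libraries. Cox8b was at 5262 and 2737 CPM at 22 h against 895 to 1001 CPM at 18 h, and the ATP synthase gene Atp5d at 2192 and 1695 against 675 to 719 CPM. In 22 h replicate 2, mt-Nd1 was at 4973 CPM and Zic1 and Hsd17b7 were at 0, with 3156101 counts in all. With 18 h alone as the longer fast, the electron transport median was 0.01 with 0 of 53 higher and 0 lower, and 737 of all genes had an unadjusted p under 0.05. Without 22 h replicate 2 these were 0.32, 0, 0 and 1231, and without 22 h replicate 3 they were 0.51, 11, 0 and 1569. Heat shock and cold-inducible genes had -0.58, with 12 of 18 lower and 1 higher, and DESeq2 called 1 lower, while with 18 h alone their median was -0.86, with 10 lower against 450 of 14488 genes in that fit. Their summed level was 1801 to 3021 CPM in the daytime fast and 1359 to 1819 CPM in the longer fast, which overlap. Muscle genes had a median of -2.13 (-2.52 with 18 h alone), and their sum lay between 668 and 5307 CPM in the longer fast, inside the range of the daytime fast. The part of these transcripts in the comparison was not tested.

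Whether the response of iBAT differs from that of other organs of the same 12 mice was tested by the interaction of organ and arm. Libraries of the same time and replicate number were taken to come from the same mouse, which the labels do not state. Against perigonadal white fat (pgWAT) edgeR called 0 of 16636 genes, with 805 (4.84%) at an unadjusted p under 0.05, and DESeq2 called 1 (0.00601%), the amino acid transporter gene Slc7a8 (interaction 1.65, adjusted p 0.0140). The median interaction was 0.01 for fatty acid synthesis and -0.29 for cholesterol genes, against 0.03 for all genes. Against the liver, edgeR called 1 of 15637 genes (0.00640%), with 2309 (14.8%) at an unadjusted p under 0.05, and DESeq2 called 1.22%. The same contrast within the liver of these mice had 2210 genes (16.3%) called by edgeR. All 6 fed liver libraries are in lane 1, as are 2 of the 6 fasted ones, while 8 h replicate 3 and all 3 at 12 h are in lane 2. Lane goes with the arm there, and its part in the liver calls and in the interaction was not tested. The gene called against the liver was Als2cl, a relative of a guanine nucleotide exchange factor. In iBAT it had 51.4, 109.9 and 78.8 CPM at 0 h, 42.98, 48.05 and 50.2 at 2 h, 42.7, 41.5 and 40.2 at 8 h, and 27.2, 62.4 and 28.5 at 12 h, and in liver 44.8 to 133.7 CPM in the fed arm and 119.2 to 236 CPM after the fast. It was higher in most fasted livers and lower in most fasted iBAT samples, and the interaction was -1.68 (standard error 0.23, adjusted p 0.0162). Leaving out single mice moved the count against the liver. It was 0 without the mouse of 2 h replicate 2, 8 h replicate 1, 8 h replicate 2 or 12 h replicate 3 (1741 to 2333 at an unadjusted p under 0.05), and 25 without that of 8 h replicate 3. It was 6 without that of 0 h replicate 3, 4 without that of 2 h replicate 1 or 12 h replicate 1, and 2 without that of 0 h replicate 2, 2 h replicate 3 or 12 h replicate 2. The median interaction of fatty acid synthesis genes against the liver was -0.46, and DESeq2 called 2 of them.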

How the data were processed

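The data are read counts per gene that the authors deposited, made with TopHat2 2.1.1 on GRCm38.p5 and HTSeq 0.9.1. Of 53686 genes, those reaching, in 3 or more libraries, the CPM that 10 counts make at median depth were tested in edgeR 4.0.16 (TMM factors, robust quasi-likelihood F test, R 4.3.3). Genes were called at a Benjamini-Hochberg adjusted p under 0.05 over all genes tested. The interaction fits hold the mouse, inferred from time and replicate number, as a block. Alternatives were DESeq2 1.42.0, limma-voom (limma 3.58.1), other factors and filters, blocks, covariates, fewer libraries, a gene length trend and each library left out. Principal components used log2 CPM.

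Arms, comparisons and 35 gene lists were chosen with earlier results of these data known. Most genes named in the text were taken from a set made by rule: the 10 with the smallest p in each direction, called list members or otherwise the 2 with the smallest p, a fixed set of brown fat, metabolic, clock and muscle genes, and up to 5 called genes of each other comparison. Not all of that set are named. Further list members and genes called between 0 h and other times were named after their values were seen. Muscle genes and unnamed gene models were skipped. The study's low-count 22 h library was left out.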

Additional observations from a re-analysis of the deposited data

Results flagged for a closer look

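Within each arm of 6 libraries, 212 sets of values were examined for 1 library far from the other 5, and 17 had such a library. Chance alone gives about 1 in 20. In 12 h replicate 3, Lppos was at 18.6 CPM against 10.2 to 12.4 CPM in the other 5, and Cited2, a transcriptional coregulator, at 19.7 CPM against 6.46 to 8.68 CPM in the other 5. The same library held Mthfd1l at 1.33 CPM against 0.567 to 0.719 CPM in the other 5, Acsl4, an acyl-CoA synthetase gene, at 16.04 CPM against 19.9 to 22.4 CPM in the other 5, and the interferon-induced gene Ifit2 at 1.74 CPM against 5.05 to 9.26 CPM in the other 5. It also held the mitochondrially encoded genes mt-Nd1 at 15412 CPM against 21984 to 25186 CPM in the other 5 and mt-Nd2 at 10236 CPM against 19718 to 25787 CPM in the other 5, and a share of counts from mitochondrial genes of 12.9% against 21.5% to 26.6%. This library had the highest muscle sum.

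In 12 h replicate 1, Rai2 was at 4.67 CPM against 7.79 to 9.18 CPM in the other 5, the immediate early gene Jun at 18.2 CPM against 39.8 to 61.3 CPM in the other 5, Fasn at 2657 CPM against 6570.1 to 9035 CPM in the other 5, and Bnip3, which marks mitochondria for removal, at 515 CPM against 181 to 266 CPM in the other 5. In 12 h replicate 2, Pfkp was at 61.6 CPM against 52.3 to 54.7 CPM in the other 5 and S100b, a calcium-binding protein gene, at 79.5 CPM against 103.7 to 119.7 CPM in the other 5. In the fed arm, Gvin1 was at 1.32 CPM against 5.61 to 11.2 CPM in the other 5 in 0 h replicate 3, Dnajb11, a chaperone gene of the endoplasmic reticulum, at 38.4 CPM against 32.7 to 33.4 CPM in the other 5 in 0 h replicate 1, and Ptprb, an endothelial phosphatase gene, at 316 CPM against 134.7 to 179 CPM in the other 5 in 0 h replicate 2.

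The response of Als2cl differed between iBAT and liver, by a tested interaction of -1.68 (adjusted p 0.0162 in edgeR). The call was lost in 4 of 14 alternatives, each without 1 mouse, with an adjusted p of up to 0.0748, and lane goes with the arm in liver.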

How the results depend on the processing

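For the daytime fast against the fed arm, edgeR called 2 genes as it did with RLE factors, with factors computed without muscle genes, with a filter in at least 6 libraries and with a length trend taken out. It called 4 with no filter beyond 1 count, 5 with the muscle level as covariate, and 9 with 17 libraries and a mean per time point. DESeq2 called 31 and limma-voom 10. With the lane as block edgeR called 0, with 8 h only 0, with 12 h only 0 and against 2 h only 0, with 982, 1247, 953 and 581 genes at an unadjusted p under 0.05, and against 0 h only 41. Fits of the 12 libraries with a mean per time point, chosen after seeing the data, called 0.729% of genes against 0 h, where the fit without 2 h called 0.291%, and 7 against both fed times. Leaving out each library gave 0 to 2. Fewer libraries were fitted where times or libraries were left out, and otherwise the cause was not tested.

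Between 2 h and 0 h, where edgeR called 31, DESeq2 called 150, the fit with no filter 61, the fit with the lane as block, chosen after seeing the data, 0, and leaving out each library gave 0 to 30. Between 12 h and 8 h the calls went from 0 to 11 in DESeq2, to 2 with no filter, and to 0 to 1268 without each library, and stayed at 0 with the lane as block. For the longer against the daytime fast, DESeq2 called 34, while 18 h alone and leaving out each library gave 0 in edgeR, where 737 genes had an unadjusted p under 0.05 with 18 h alone. For iBAT against pgWAT, DESeq2 called 1, and the fit without the mouse as block and those without each mouse called 0 in edgeR. For iBAT against the liver, edgeR called 0.00640% of genes, DESeq2 1.22%, the fit without the mouse as block 0.160%, and leaving out each mouse gave 0% to 0.161%. The cause was not tested.

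Replicate numbers were also used as a block. Libraries of the same number at different times come from different mice, and in 15 of 18 such pairs of times their deviations correlated above 0.1 across genes (range -0.14 to 0.59; genes are not independent replicates). With this replicate block edgeR called 0 genes between the arms (unadjusted p under 0.05 for 1181), 53 between 2 h and 0 h, 0 between 12 h and 8 h and 0 for the longer fast.

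Of 2989 single gene values under the alternatives, 2869 kept their side of the threshold, 52 no longer passed and 68 newly passed. Most of these values belong to genes that did not pass in the main fit and so could not lose a call. Where a gene had passed, the call was lost in 17 of 29 settings for Sh2d4a, 16 of 29 for Isyna1 and 4 of 14 for Als2cl. Between 2 h and 0 h it was lost in 3 of 10 for each of Sqle, Prkab1, E2f2, Ripor2 and Ttc25. The sign differed from that of the main fit in 57 values, none of them called in either fit, and 24 of these lay at least 1 standard error from the main value. The median over all genes for the arms stayed between -0.03 and 0.03 in all settings. Arhgef37, a gene with few counts, had a standard error of 0.54 against a median of 0.21 over all genes, and depth was not varied.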
